A study of Mus musculus with 14 samples.

Results

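Promoters were sorted by 2 marks that compete for the same histone residue, and their moves between the resulting classes after knockdown (kd) of Smarcb1 were counted. The promoter of each protein-coding gene was the stretch of 1 kb to either side of its transcription start site (TSS), and it was classed separately in control and in kd cells as acetylated (H3K27ac island only), methylated (H3K27me3 island only), both or none. An island is a region that the authors' peak caller found enriched, and 1 shared base sufficed for a call. Of 21938 protein-coding promoters, 13847 (63.1%) carried either mark in either condition, and 5923 (27% of all) changed class.

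The data came from ChIP-seq, the sequencing of DNA immunoprecipitated with an antibody against a chromatin protein or mark, in 81K1 mouse embryonic stem cells (mESC), which express an shRNA against Smarcb1 when doxycycline is given. Smarcb1 is a core subunit of the BAF chromatin remodelling complex, and the comparison addresses how its loss alters the histone marks at genes. The control group was untreated 81K1 cells and the kd group 81K1 cells that received 1 µg/ml doxycycline for 72 h, both with the inducible cassette at the Rosa26 locus. Of 14 samples, 10 were immunoprecipitated (H3K27me3, H3K27ac, H3K4me3, Ezh2 and Smarca4, 1 library for each antibody and condition) and 4 were background libraries. 81K1 is 1 clone (K1) of the OG2 line, kept on gelatine with serum and LIF, and doxycycline without the shRNA was not among the ChIP-seq samples, so that effects of the drug and of the kd cannot be told apart. With 1 library for each condition there was no replicate spread, no test between conditions and no p-value of a difference. The ranges in parentheses behind a share are its 95% Wilson interval, which reflects the number of promoters counted and no biological spread, and neighbouring promoters can share an island.

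H3K27me3 is deposited by PRC2, whose catalytic subunit is Ezh2, and marks silent genes. In mESC it covers CpG-rich promoters of developmental regulators, many of which also carry H3K4me3 and are then called bivalent. H3K27ac is deposited by the acetyltransferases p300 and CBP and marks active promoters and enhancers. A single H3 tail cannot carry both modifications on lysine 27, so a promoter with both calls holds them on different histones, alleles or cells, which bulk ChIP-seq cannot tell apart.

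A few promoters show the range of sequence behind the moves, given here as the 250 bases before the TSS in RefSeq (GRCm38.p6), 5′ to 3′ on the gene's strand, with every CG in capitals. CG is the dinucleotide that DNA methylation and CpG islands concern, reads the same on both strands, and occurred in 95.3% of the 14278 RefSeq promoters that matched a gene of the annotation within 1 kb. Klf4 and Lif stand for the complete switch from H3K27me3 to H3K27ac, Foxd3 and Inhbb for promoters that gained H3K27ac while keeping H3K27me3, Hoxd13 for those that stayed methylated, Gli2 for the move from both marks to H3K27ac, and Slco4c1 for the opposite switch. Apart from Hoxd13, which was chosen after its class was seen, they came from the naming rule. Their windows are chr4:55532476-55532725 (Klf4, minus strand), chr11:4257318-4257567 (Lif, plus), chr4:99656049-99656298 (Foxd3, plus), chr1:119422249-119422498 (Inhbb, minus), chr2:74667975-74668224 (Hoxd13, plus), chr1:119053620-119053869 (Gli2, minus) and chr1:96872172-96872421 (Slco4c1, minus).
Klf4: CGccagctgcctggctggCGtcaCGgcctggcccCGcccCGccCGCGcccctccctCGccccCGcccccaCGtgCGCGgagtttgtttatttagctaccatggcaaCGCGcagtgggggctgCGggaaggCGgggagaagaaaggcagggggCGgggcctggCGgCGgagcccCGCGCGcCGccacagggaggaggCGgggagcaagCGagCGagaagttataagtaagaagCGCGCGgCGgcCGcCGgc
Lif: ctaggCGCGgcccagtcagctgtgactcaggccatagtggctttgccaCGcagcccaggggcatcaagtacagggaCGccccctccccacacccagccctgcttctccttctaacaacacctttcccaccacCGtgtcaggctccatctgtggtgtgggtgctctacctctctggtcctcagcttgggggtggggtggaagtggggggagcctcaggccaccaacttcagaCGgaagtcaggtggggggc
Foxd3: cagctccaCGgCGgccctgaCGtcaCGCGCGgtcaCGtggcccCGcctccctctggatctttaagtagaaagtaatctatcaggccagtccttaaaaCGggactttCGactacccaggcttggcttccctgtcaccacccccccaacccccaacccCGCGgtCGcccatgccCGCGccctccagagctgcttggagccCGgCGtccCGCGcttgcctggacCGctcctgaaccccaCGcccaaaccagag
Inhbb: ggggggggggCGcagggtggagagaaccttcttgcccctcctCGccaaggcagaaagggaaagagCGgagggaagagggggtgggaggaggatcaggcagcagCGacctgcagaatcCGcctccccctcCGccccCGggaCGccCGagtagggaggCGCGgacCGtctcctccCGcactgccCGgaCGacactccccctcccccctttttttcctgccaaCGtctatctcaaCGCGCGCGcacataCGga
Hoxd13: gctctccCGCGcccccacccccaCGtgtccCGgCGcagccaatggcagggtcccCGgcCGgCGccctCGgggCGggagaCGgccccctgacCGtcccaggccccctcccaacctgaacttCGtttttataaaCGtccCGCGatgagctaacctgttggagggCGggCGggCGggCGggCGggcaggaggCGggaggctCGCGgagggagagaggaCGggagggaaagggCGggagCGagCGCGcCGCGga
Gli2: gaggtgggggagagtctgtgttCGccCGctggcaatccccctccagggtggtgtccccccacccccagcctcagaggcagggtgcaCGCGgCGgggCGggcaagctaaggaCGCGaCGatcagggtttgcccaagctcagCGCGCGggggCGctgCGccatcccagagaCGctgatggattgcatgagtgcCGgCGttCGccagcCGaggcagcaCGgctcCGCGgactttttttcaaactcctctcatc
Slco4c1: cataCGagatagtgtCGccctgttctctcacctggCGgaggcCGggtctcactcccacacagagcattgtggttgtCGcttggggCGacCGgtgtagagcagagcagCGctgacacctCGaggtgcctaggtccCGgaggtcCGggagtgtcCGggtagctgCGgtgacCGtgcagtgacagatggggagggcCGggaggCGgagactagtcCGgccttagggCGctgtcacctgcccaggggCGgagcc
The Klf4 window held 32 CG and the Hoxd13 window 31, more than 93.9% and 93.0% of matched promoters. Foxd3 and Inhbb held 21 each, Gli2 22 and Slco4c1 19. Lif held 6, against a median of 12 over all matched promoters, so that both CpG-rich and CpG-poor promoters were found in the switch to H3K27ac.

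The lists themselves differed in length between conditions: H3K27me3 had 22909 islands in control and 18320 after kd, and H3K27ac 39091 and 51100. The methods give an approximate depth for the H3K27ac, H3K4me3 and Ezh2 libraries and none for H3K27me3 and Smarca4. The read counts reached are unknown here, and a call that is missing in 1 library is not a measured loss. Chromosome 8 stood apart: 36.1% of its promoters without H3K27ac in control gained the call, against 19.2% on the other chromosomes, while its share of lost H3K27me3 calls was 26.4% against 23.2%. The part of chromosome 8 in the results was not tested, and leaving it out gave 333 promoters for the move from methylated to acetylated (375 with it), 616 for methylated to both (698), 1220 for methylated to none (1280), 2355 for none to acetylated (2548) and 102 for both to acetylated (112). In the control cells 9 of 14 stem cell markers had H3K27ac (Pou5f1, Sox2 and Nanog among them). Of the others 3 had H3K27me3 (Klf4 and Fgf4 among them) and 2 neither mark. H3K27me3 was called at 6 of 8 fibroblast, 5 of 6 neural, 4 of 5 trophoblast and 4 of 4 endoderm markers, and 1 fibroblast marker (Fn1) had H3K27ac. In kd cells H3K27ac was called at 12 of the 14 stem cell markers, while over all promoters its share was 16.0% in control and 30.9% after kd.

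Among the moves, H3K27ac was gained far more often than lost, and H3K27me3 was lost more often than gained. The H3K27ac call was gained at 3685 promoters (16.8% of all, and 20.0% of those without it in control) and lost at 402 (1.83%; 606 with lists of equal length). The H3K27me3 call was lost at 1788 promoters (8.15% of all, and 23.3% of those methylated or with both marks in control) and gained at 524 (2.39% of all, and 3.67% of those without it in control; 348 when promoters with a control island within 5 kb were left out). Of the 5923 promoters that changed class, 5447 changed 1 mark and 476 changed both. The most frequent moves were from none to acetylated (2548 promoters, 11.6%), from methylated to none (1280, 5.83%), from methylated to both (698, 3.18%), from none to methylated (401, 1.83%) and from methylated to acetylated (375, 1.71%). Acetylated promoters were the most stable class (88.1% stayed, 87.0 to 89.2), followed by none (72.9%), methylated (67.9%, 66.8 to 69.0) and both (45.0%, 39.7 to 50.4).

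**Figure D1:**
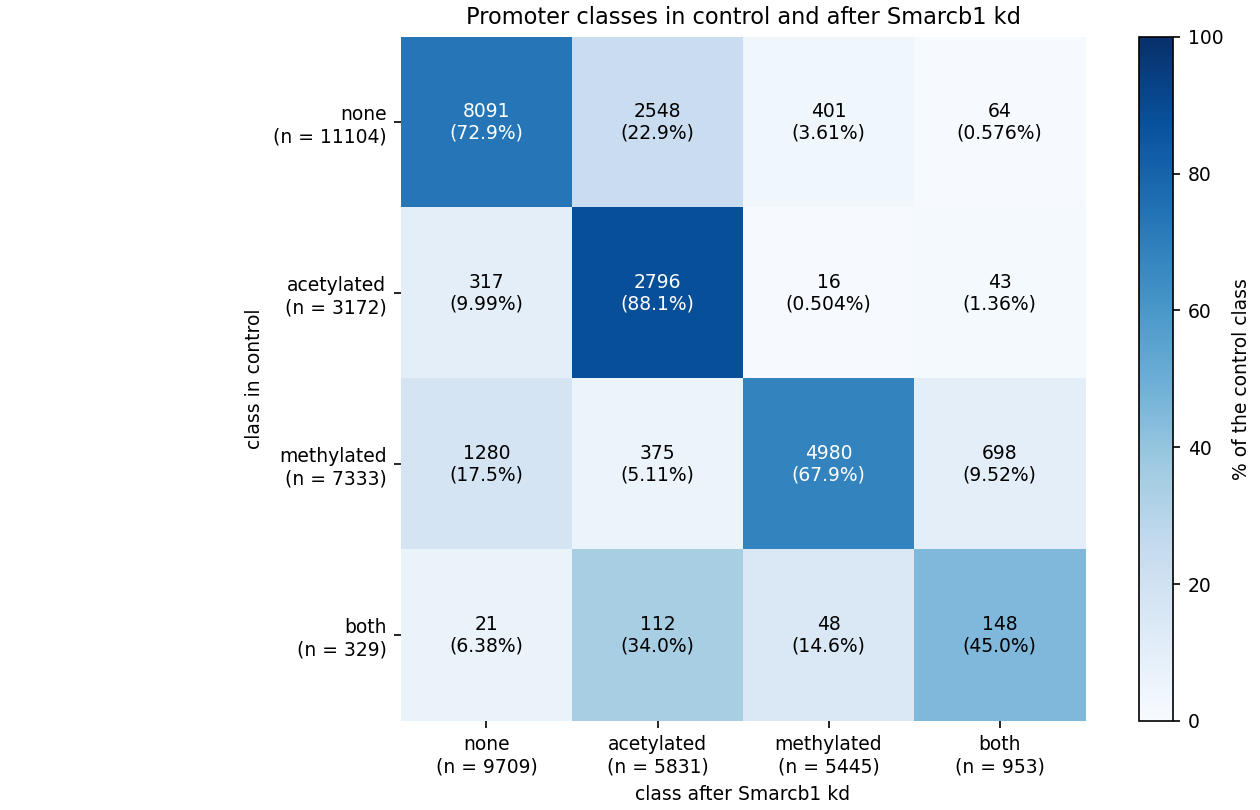
Moves of 21938 protein-coding promoters between classes, with the class in control as rows and the class after Smarcb1 kd as columns. Each field gives the number of promoters and its share of the control class in percent (also as colour, on a scale of 0 to 100%). The diagonal holds the promoters that stayed, and the methylated row loses 1280 promoters to none, 375 to acetylated and 698 to both.

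The complete switch from H3K27me3 to H3K27ac took in 375 promoters (1.71% of all promoters, and 5.11% of the 7333 methylated ones, 4.63 to 5.64). They lay in 337 separate stretches and touched 330 H3K27me3 islands in control and 336 H3K27ac islands after kd. When the longer list of each mark was shortened to equal lengths the number was 242, with 25 promoters in the opposite switch.

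By the naming rule, which orders promoters by the weaker of their lost and gained islands, the switch was led by Osm, the gene of the cytokine oncostatin M (TSS at position 4236420 of chromosome 11, plus strand). Its control H3K27me3 island spanned 13.0 kb (p of 1.37e-77 from the peak caller, for enrichment over background within that library), and the next H3K27me3 island in kd cells was 114 kb away. In kd cells H3K27ac came within 0.22 kb of the TSS, and the strongest H3K27ac island in the window spanned 17.0 kb (p of 3.64e-131). The gene next to it, Lif, encodes leukaemia inhibitory factor, the cytokine that keeps mESC undifferentiated and that was also in the medium. The Lif promoter (TSS 4257557, plus strand, the CpG-poor sequence above) made the same switch, from a 10.0 kb H3K27me3 island (p of 1.45e-50) to a 3.0 kb H3K27ac island (p of 7.83e-39). Neither Osm nor Lif had an H3K4me3 island or an Ezh2 peak within 1 kb of the TSS in either condition, and both had a Smarca4 peak in both.

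Of pluripotency factors, Klf4 and Myc switched. At Klf4, a reprogramming factor (chromosome 4, TSS 55532466, minus strand), the control H3K27me3 island was short and weak for its list (1.8 kb, p of 7.00e-16, limit of the list 1e-10) and lay 0.266 kb from the TSS. No H3K27me3 island was left within 108 kb in kd cells, where a 4.2 kb H3K27ac island covered the TSS (p of 2.97e-30). Its promoter carried H3K4me3 in both conditions. Myc, which drives growth and proliferation, had a stronger control island (2.6 kb, p of 1.20e-45), but an H3K27me3 island lay 3.39 kb from its TSS in kd cells.

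The other leading genes of the switch were Zeb1 (a repressor of epithelial genes), Dyrk2 (a protein kinase), Unc13a (synaptic vesicle priming), Lama5 (a laminin chain of basement membranes), Pcbp4 (an RNA-binding protein), Fscn1 (an actin bundler), and Mepce and Zcwpw1, which share a start region and the same islands. Zeb1 had the strongest H3K27me3 island of these apart from Unc13a (p of 6.87e-161, 5.0 kb), and an H3K27me3 island remained 1.14 kb from its TSS after kd, just outside the window. Unc13a lost a 30.6 kb island whose p was listed as 0. Lama5 lost a 17.2 kb island (p of 7.16e-100), and its next H3K27me3 island in kd cells was 101 kb away.

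Over all 375 switched promoters, the H3K27me3 island lost had a median −log10 p of 31.8 and a width of 5.2 kb, and the H3K27ac island gained a median −log10 p of 11.7 and a width of 2.2 kb. A share of 33.9% (127) lost an island with p above 1e-20, and 39.7% (149) gained one with p above 1e-10. In 88 (23.5%) another H3K27me3 island lay within 5 kb of the TSS after kd, and in 42 (11.2%) an H3K27ac island lay within 5 kb in control. For all promoters that lost H3K27me3 the share with an island left within 5 kb was 21.1%, close to that of the switched ones. At the limit of the window, the outermost islands counted lay 995 to 1000 bp from a TSS and the nearest ones not counted lay 1 to 3 bp beyond the limit of 1000 bp.

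At promoters that moved from methylated to acetylated, the window itself forced most of the overlap between the lost and the gained mark. In 303 of 375 (80.8%) the kd H3K27ac island covered bases inside the window that H3K27me3 had covered in control, with a median of 799 bp. In 266 of the 375 the bases covered by each mark added up to more than the window, so that they had to overlap, and of the other 109 promoters 37 (33.9%) had shared bases. The TSS itself lay inside the control H3K27me3 island in 205 promoters (54.7%), against 95.1% of those that stayed methylated, and inside the kd H3K27ac island in 273 (72.8%). Around the TSS, the share of these promoters covered by H3K27me3 in control was lowest 400 bp upstream (50.4%), and the share covered by H3K27ac after kd was highest 200 bp downstream (76.8%).

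**Figure D2:**
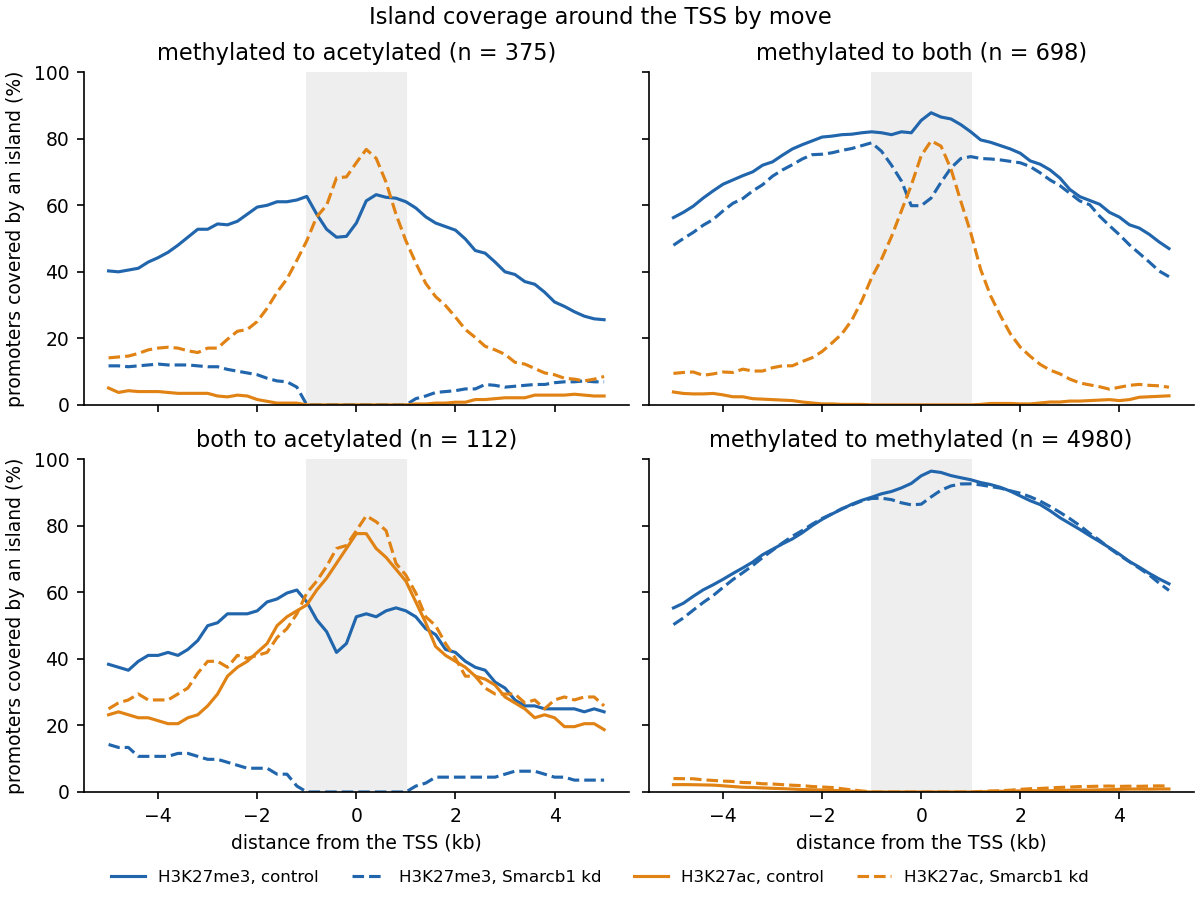
Share of promoters covered by an H3K27me3 island (blue) or an H3K27ac island (orange) at each distance from the TSS, in steps of 200 bp from 5 kb upstream (negative) to 5 kb downstream, in control (solid) and after Smarcb1 kd (dashed), for 4 moves; the shaded window is the one used for classing, so the lines inside it follow from the classes. In promoters that moved from methylated to both, H3K27me3 covered the TSS in 85.5% in control and in 59.9% after kd, while 1 kb upstream it covered 82.1% and 78.8%.

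The gain of H3K27ac without a lost H3K27me3 call was more frequent, with 698 promoters moving from methylated to both (3.18% of all promoters, and 9.52% of the methylated ones, 8.87 to 10.2). Samd1, which encodes a protein that binds unmethylated CpG islands, came first by the rule (H3K27ac p of 4.68e-75 after kd). Ebf1 (a B cell and neuronal transcription factor), Irf2bp2, Pbx3 (a Hox cofactor), Ccdc194, Cacnb1 (a calcium channel subunit), Tnrc18, Car11 and Necab2 were among those that followed. At Ebf1 the control H3K27me3 island spanned 17.0 kb (p listed as 0) and the kd island 9.6 kb, with a new 1.6 kb H3K27ac island (p of 3.79e-72). Of these genes, Samd1, Irf2bp2, Ccdc194 and Necab2 lie on chromosome 8, which held 82 of the 698 promoters (11.7%) and 4.74% of all promoters.

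The overlap of the marks after kd was likewise set largely by the window. In 576 of 698 (82.5%) the H3K27me3 and H3K27ac islands of the kd lists shared bases inside the window (median 801.5 bp), and in 122 they lay side by side. Overlap was forced by the covered lengths in 517, and of the other 181 promoters 59 (32.6%) had shared bases. The H3K27me3 calls covered the TSS less often after kd: 597 of the 698 TSSs were inside an H3K27me3 island in control and 418 after kd, and the median number of bases covered went from 2001 (the whole window) to 1673. The H3K27ac islands were narrow (median 1.8 kb) and weak for their list (median −log10 p of 10.3, with 46.4% above p of 1e-10). Among promoters that stayed methylated alone, the TSS was covered in 95.1% in control and 86.5% after kd.

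Promoters that held both marks in control were few (329, or 1.5% of all) and left that class more often than they stayed. Of them 148 kept both, 112 moved to acetylated (0.511% of all promoters, and 34.0% of those with both, 29.1 to 39.3), 48 to methylated (0.219% of all, and 14.6% of those with both) and 21 to none (0.0957% of all). The number of promoters with both marks was 953 after kd, of which 73.2% had been methylated and 15.5% had held both before. With stricter island limits (p at most 1e-20 for H3K27me3 and 1e-10 for H3K27ac) the numbers with both marks were 113 in control and 430 after kd.

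The move from both to acetylated held Gli1 and Gli2, transcription factors of Hedgehog signalling, and the adhesion gene Cdh1. Gli3 kept both marks. Gli2 (chromosome 1, TSS 119053619, minus strand) lost a 5.2 kb H3K27me3 island (p of 3.20e-14), with none left within 133 kb, while its H3K27ac island changed from p of 1.09e-09 to p of 4.02e-82 and spanned 9.6 kb. Gli1, the target gene and amplifier of the pathway, lost a 1.0 kb island 0.574 kb from the TSS (p of 2.19e-22), and its H3K27ac p went from 9.49e-07 to 2.03e-94. Deposited p-values are not scaled between libraries, so these pairs order an island within its own list only. Cdh1, the gene of E-cadherin (chromosome 8, TSS 106603351), lost a 15 kb H3K27me3 island (p of 2.26e-105) and kept an H3K27ac island (p of 7.56e-131 and 22.2 kb after kd). Its neighbour Cdh3 (P-cadherin, TSS 106510891) made the opposite move, keeping H3K27me3 in 13.6 kb and losing a weak H3K27ac call (p of 7.38e-06, near the limit of 1e-05), with the next H3K27ac island 2.11 kb away. Cdkn1a, the gene of the cell cycle inhibitor p21, moved from both to acetylated, with an H3K27me3 island left 3.03 kb away. The first 10 by the rule were Ttll6, Usp10, Mroh8 and Rpn2 (which share their islands), Khdrbs1, Aen, Tmem151b, Macrod1, Cd63 and Serping1. The H3K27me3 islands of the first 9 all had p listed as 0 in control.

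The opposite direction was rare. Only 16 promoters (0.0729% of all, and 0.504% of the acetylated ones, 0.311 to 0.818) went from H3K27ac to H3K27me3, against 375 in the other direction, and depending on the setting their number ranged from 3 to 25. Slco4c1, an organic anion transporter (chromosome 1, TSS 96872171, minus strand), led them with a lost H3K27ac island (p of 1.71e-48) and a gained 3.0 kb H3K27me3 island over the TSS (p of 2.77e-17), 787 kb from the nearest control one. Tnfrsf10b (a death receptor), Esp34 (a secreted peptide), Tnfaip8, Cobl (an actin nucleator), Ndufs4 (a subunit of respiratory complex I), Prss35, Gjb5 (a connexin), Fam196b and Pfkp (a phosphofructokinase) completed the first 10. In 13 of the 16 the gained H3K27me3 covered bases that had lost H3K27ac, and how many of these overlaps the window forced was not counted. At Cobl the lost H3K27ac was the strongest in the group (p of 1.98e-84) and the gained H3K27me3 island was near the limit of its list (p of 9.37e-11). At Ndufs4 and Pfkp an H3K27me3 island lay 1.14 and 1.42 kb from the TSS in control already, just outside the window.

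Further promoters gained H3K27me3 while holding or gaining H3K27ac. The move from acetylated to both held 43 promoters (0.196%), led by Hist1h1e (a linker histone), Mib1 (an E3 ligase of the Notch pathway), Tead1 (the DNA-binding partner of Yap), Cldn34c4 and Mb21d2. Sall4, a pluripotency factor with H3K27ac p of 3.95e-50 in control, gained an H3K27me3 island of 3.4 kb over its TSS (p of 1.47e-13). From none to both moved 64 promoters (0.292%), led by Nom1, Ifi27l2b, Sbf2, Ptgfrn and Ntmt1. The gained H3K27me3 island covered the TSS in 9 of the 43 and 13 of the 64 (20.3%), so in most of these promoters it did not reach the TSS. From both to none went 21 promoters (0.0957%). Among them were Rps14, a ribosomal protein gene whose next H3K27ac island lay 1.1 kb from the TSS after kd, and Nr5a2, a nuclear receptor of the pluripotency network, whose next H3K27ac island in kd cells lay 2.05 kb from the TSS.

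Moves of 1 mark from or to none made up most of the changes. The 2548 promoters that went from none to acetylated were led by Trim28 (the corepressor of KRAB zinc finger proteins, with the island 0.687 kb from the TSS), Cdt1 (replication licensing) and Piezo1 (a mechanosensitive channel), the latter pair sharing a 19.8 kb island on chromosome 8, then Iqcn and Vmn1r48. The 317 from acetylated to none (1.44%) were led by Mme, F13b, Lpar6 and Zfp985, and 56.8% of their lost islands had p above 1e-10. The 401 from none to methylated were led by Ifna11, Ifna6 and Ifna7, 3 type I interferon genes that share 1 H3K27me3 island of 55.4 kb in the kd list (the next control island was 2.43 kb from Ifna7), and by Trappc1 and Zfp287. The 1280 from methylated to none were led by Trhr2, Flrt1, Osgin1, Cbfa2t3 and Pabpn1l. These 5 lost islands of 85.0 to 160.2 kb with p listed as 0, and all but Flrt1 lie on chromosome 8.

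How strong the H3K27me3 island was in control went with what became of the promoter. The 7333 methylated promoters were split into 5 groups of 1466 or 1467 by the deposited p of their control island, with islands listed at p of 0 ordered by width. Class none after kd held 48.7% of the weakest group, 23.3% of the next, 7.84% of the middle group, 2.18% of the next and 5.18% of the strongest. Class acetylated held 13.0% of the weakest group and 1.09 to 1.43% of the 2 strongest. Class both showed no such order, with 5.93% of the weakest group and 9.0 to 11.7% of the other 4. Accordingly the median −log10 p of the control island was 28.7 at promoters that went to none, 31.8 at those that switched to H3K27ac, 153 at those that gained H3K27ac beside H3K27me3 and 239 at those that stayed methylated. This strength belongs to the mark that defines the classes and describes them.

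**Figure D3:**
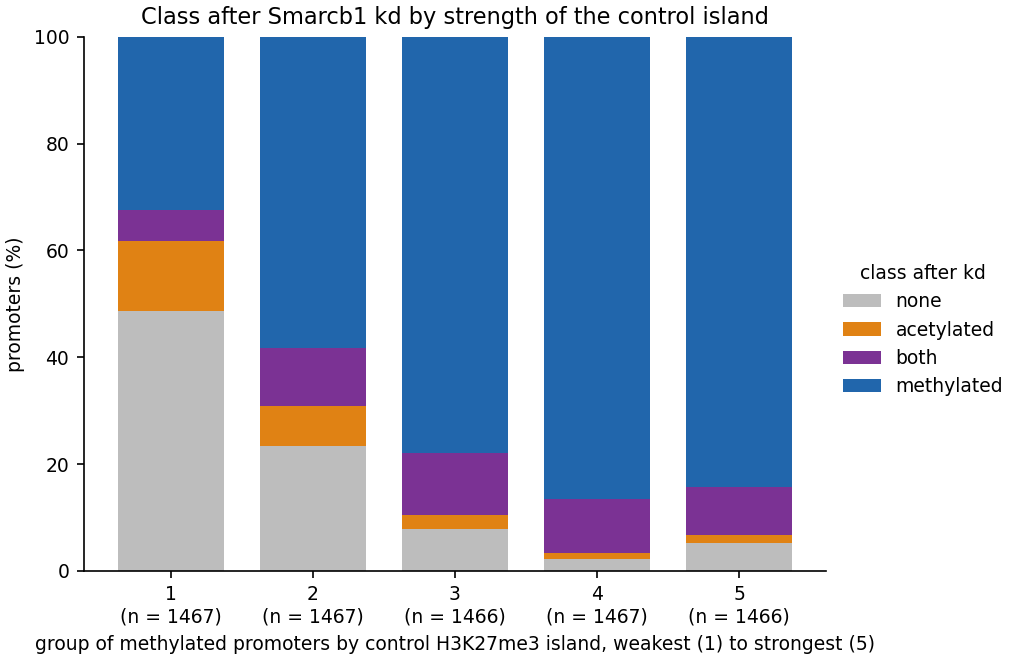
Class after Smarcb1 kd (share of promoters in percent, stacked to 100%) of the 7333 promoters methylated in control, in 5 groups of equal size from the weakest (1) to the strongest (5) control H3K27me3 island by deposited p. None and acetylated together shrink from group 1 to group 4, while the share with both marks stays between 9.0% and 11.7% in groups 2 to 5.

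Promoters with an Ezh2 peak in control, which the classes did not use, rarely lost H3K27me3, although most promoters that kept the mark had no Ezh2 peak either (4344 of 5874). Of the 1537 promoters with H3K27me3 and an Ezh2 peak in control, 7 lost the H3K27me3 call (0.455%, 0.221 to 0.937), against 1781 of 6125 without Ezh2 (29.1%, 28.0 to 30.2). The 7 were Cfap77, Igf2bp3, March9, Prpsap1, Prss39, Rai1 and Spaca7, named after their values were seen. Without chromosome 8 the shares were 0.410% and 28.9%. By strength of the control island among methylated promoters, 2 of 7 with Ezh2 (8.22 to 64.1) and 61.8% without it lost H3K27me3 in the weakest group, 0 of 166 (an interval up to 2.26%) and 153 of 1300 (11.8%) in the middle group, and 1 of 639 and 96 of 827 (11.6%) in the strongest, where every p was listed as 0 and strength was therefore not matched. Strong islands were also more often Ezh2-bound (43.6 to 46.6% in the 2 strongest groups, 0.477% in the weakest), and the part of strength in the difference was not tested. H3K27me3 and Ezh2 were processed in different laboratories.

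Ezh2 peaks touched more promoters after kd (12.6% of all, against 7.13% in control), although the whole Ezh2 list was shorter (5364 peaks, against 6708). The kd peaks were wider (median 736 bp, against 354 bp in control), and the part of peak width in the promoter counts was not tested, so the counts are of calls and not of the amount of Ezh2. Among promoters without Ezh2 in control, 32.8% (178 of 543) of those that moved from methylated to both and 26.7% of those that stayed methylated gained it, against 6.22% of all promoters. Ezh2 was called at 22.2% of the promoters that moved from methylated to both in control and at 46.8% after kd, and at 27.3% and 46.2% of those that stayed methylated. At switched promoters it was called at 0.80% (3 of 375) and 5.07% (19). Among the 48 promoters that lost H3K27ac and kept H3K27me3 it was called at 1 in control and at 21 after kd (43.8%, 30.7 to 57.7), and among the 112 that kept H3K27ac and lost H3K27me3 at 1 and 4. Cdh3 and Arid5b were among those 21, with Ezh2 scores of 38 and 22 after kd and no peak in control. At Hand2, a heart and neural crest factor that moved from methylated to both, the Ezh2 score was 685 in control and 2006 after kd, and at Foxd3, a stem cell and neural crest factor, 33 and 334, though scores are not scaled between libraries.

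H3K4me3, the mark of active and bivalent promoters, marked the promoters where H3K27ac appeared. It was called in control at 90.1% of the promoters that moved from methylated to both, 79.5% of the switched ones, 61.2% of those that stayed methylated and 30.8% of those that lost H3K27me3 without gaining H3K27ac, against 56.6% of all promoters. Among methylated promoters with H3K4me3, H3K27ac was gained by 43.1% (298 of 692, 39.4 to 46.8) of those that lost H3K27me3 and by 17.1% (629 of 3675, 15.9 to 18.4) of those that kept it. Without H3K4me3 the shares were 8.0% (77 of 963) and 3.44% (69 of 2003). Of promoters with neither H3K27 mark in control, 49.9% (2407 of 4823, 48.5 to 51.3) with H3K4me3 and 3.26% without it gained H3K27ac. The methylated promoters with H3K4me3 were also split at the median CpG ratio of all promoters with H3K4me3 in control. At or above it, 56.3% (160 of 284, 50.5 to 62.0) that lost H3K27me3 and 24.3% that kept it gained H3K27ac. Below it the shares were 33.8% (138 of 408) and 10.4% (199 of 1908). Without chromosome 8 and over all CpG ratios, the shares with H3K4me3 were 41.1% (H3K27me3 lost), 16.0% (H3K27me3 kept) and 48.9% (neither mark in control). On chromosome 8 alone 41.8% (105 of 251) of the methylated promoters with H3K4me3 gained H3K27ac, against 20.0% on the others.

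Smarca4, the ATPase of the BAF complex, was called at most promoters that gained H3K27ac. In control it was called at 96.4% of the promoters that moved from methylated to both, 88.0% of the switched ones, 82.3% of those that stayed methylated and 47.1% of those that lost H3K27me3 alone (all promoters 62.5%). After kd the values were 96.6%, 91.5%, 80.7% and 48.1% (all promoters 63.5%). Each of these moved by less than 4 percentage points, so the classes differed from each other in Smarca4 calls more than the conditions did.

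**Figure D4:**
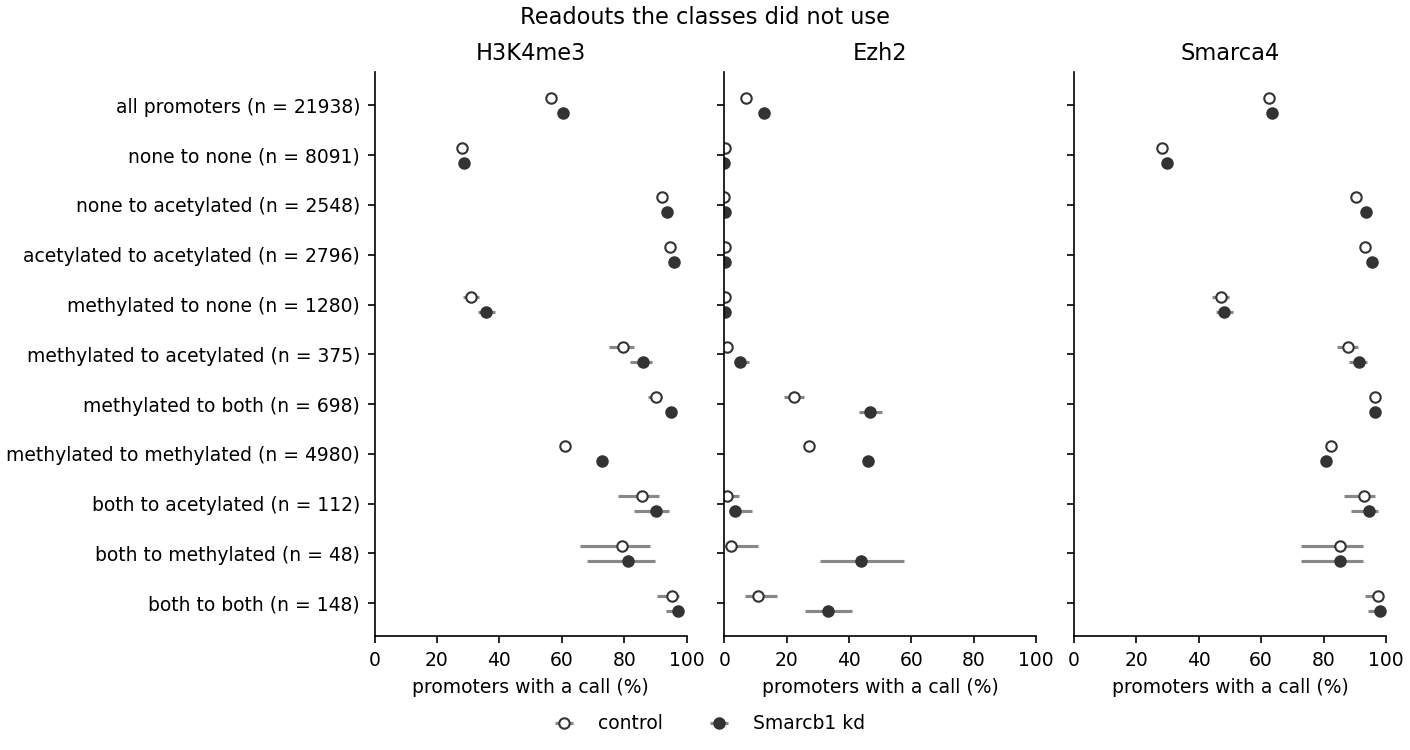
Share of promoters (percent, horizontal axis) with an H3K4me3 island, an Ezh2 peak or a Smarca4 peak in control (open) and after Smarcb1 kd (filled), for all promoters and for 10 moves; bars are 95% Wilson intervals for counting error. Ezh2 calls are at 5.07% or less in the plotted moves that end without H3K27me3 and reach 46.8% after kd in the promoters that moved from methylated to both.

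The DNA sequence of the promoters differed by move as well. The ratio of observed to expected CpG over the window had a median of 0.69 at promoters that moved from methylated to both, 0.58 at switched ones, 0.52 at those that stayed methylated and 0.28 at those that lost H3K27me3 alone, against 0.47 over all promoters. In the 250 bases before the TSS, the promoters of these moves that matched RefSeq (472, 270, 3284 and 847) had medians of 21, 15, 13 and 6 CG. Among methylated promoters in the lowest group of this ratio (at most 0.28) 43.5% (644 of 1482) went to none and 2.29% to both. In the highest group (above 0.60) 6.48% (164 of 2529) went to none, 6.92% switched and 18.5% moved to both. The share that switched was 3.91% in the lowest and 4.27% in the middle group.

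Among gene lists, Hox and other homeobox genes, the transcription factors of the body plan, kept H3K27me3 at all but 1 promoter. These lists were drawn up by symbol with earlier results of these data known, and are described by counts beside the background of all promoters (23.3% of those with H3K27me3 lost it, and 14.6% of the methylated ones gained H3K27ac). All 39 Hox genes stayed methylated without H3K27ac, with an Ezh2 peak at 32 in control and 36 after kd. Of 131 other homeobox genes with H3K27me3, 1 lost it (Six4, from both to acetylated) and 7 gained H3K27ac beside it (Gbx2, Gbx1, Lhx5, Six5, Phox2a, Nkx6-3 and Cdx4). Of 36 Fox genes 6 lost H3K27me3 (16.7%). The 3 that switched included Foxo3 and Foxo4, effectors of insulin signalling, with H3K27ac at p of 6.16e-26 and 8.06e-06, and Foxr1. Foxd1, Foxd3, Foxa3 and Foxo1 moved to both. Of 16 Sox genes with H3K27me3 only Sox13 lost it, and Sox1, Sox11 and Sox30 moved to both. Sox1, an early neural marker, kept a 54.0 kb H3K27me3 island (66.6 kb in control) while gaining a 3.4 kb H3K27ac island over its TSS (p of 3.97e-19).

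Genes of the signalling pathways gained H3K27ac both with and without a lost H3K27me3 call, and differences between pathways were not tested. Of the 54 Wnt pathway genes with H3K27me3, none lost it (0.00%) and 10 gained H3K27ac beside it (19.2% of the 52 that were methylated alone). These were the receptors Fzd2, Fzd6, Fzd7 and Fzd10, the nuclear effectors Tcf7 and Tcf7l1, the cytoplasmic genes Dvl1 and Axin2, the ligand Wnt9a and the secreted inhibitor Sfrp1. At Fzd2 the H3K27me3 island went from 13.4 to 10.8 kb and a 5.0 kb H3K27ac island appeared (p of 1.05e-34). Of 54 TGF-beta and BMP pathway genes 6 lost H3K27me3 (11.1%). The ligands Lefty2 and Gdf1, the signal transducer Smad1 and the receptor Amhr2 switched, and 8 genes moved to both (with the switched ones 12 of 52 methylated genes, or 23.1%, gained H3K27ac), among them Inhbb, Inha, Bmp1, Acvr1, Smad3 and Tgfbr1. Lefty2, a Nodal antagonist, had a weak control island (p of 3.51e-11) and a kd H3K27ac island of p of 1.46e-34, and an H3K27ac island lay 1.09 kb from its TSS in control already. Of 25 Notch and Hedgehog genes 8 lost H3K27me3 (32.0%). The receptor Notch3 and the modulator Rfng switched, Notch1, Gli1 and Gli2 moved from both to acetylated, and Sufu, Mfng and Notch4 moved to none. At Notch3 an H3K27me3 island lay 1.05 kb from the TSS after kd, and at Notch1 the H3K27ac island was 0.2 kb wide and 0.738 kb from the TSS. Of 26 FGF pathway genes 2 lost H3K27me3 and 4 moved to both (Dusp4, Fgf3, Fgfbp3 and Spred3).

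Pluripotency, chromatin and growth genes carried H3K27me3 less often than the developmental lists above. Of 31 pluripotency factor genes 9 had H3K27me3 and 4 of these lost it: Klf4 and Myc switched, Fgf4 moved to none and Nr5a2 from both to none. Tbx3, Dppa3 and Gbx2 gained H3K27ac beside H3K27me3, and at Tbx3 the H3K27me3 island spanned 57.8 kb after kd and 40.0 kb in control. H3K27ac was called at 17 of the 31 in control and 23 after kd. Of 160 chromatin regulator genes (a list drawn up by symbol pattern, which took in a few genes of other function) 48 had H3K27me3 and 10 lost it (20.8%). Smarcc2, itself a BAF subunit, Ring1 of PRC1, the deacetylase Sirt6 and the H3K27 demethylase Kdm6b switched. The de novo DNA methyltransferases Dnmt3a and Dnmt3b, Bmi1 and Pcgf3 of PRC1, Uhrf2, Setd7, Kat6a and Kdm7a moved to both. At Dnmt3a the H3K27me3 island went from 55.4 to 6.8 kb. At Smarcc2 an H3K27me3 island lay 1.15 kb from the TSS after kd. Of 27 cell cycle genes with H3K27me3 7 lost it, with Cdc14a, Cdc25c, Pole and Cdc42bpb (a kinase that binds Cdc42, taken in by its symbol) switching. H3K27ac was called at 46 of 122 cell cycle genes in control and 87 after kd (37.7% and 71.3%, against 16.0% and 30.9% of all promoters).

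Ribosomal protein genes were mostly acetylated, and 4 of them switched (Rpl7, Rpl11, Rpl12 and Rpl3l). H3K27ac was called at 54 of 83 in control and 77 after kd. H3K27me3 was called at 8 in control, and 6 of these lost it. In Rpl7 and Rpl11 the control H3K27me3 island lay 0.739 and 0.573 kb from the TSS and the nearest kd island 1.14 and 1.37 kb, so that the change in class rests on less than 1 kb of movement across the limit of the window. Rpl12 had a weak island (p of 2.76e-13) 0.359 kb from the TSS and none within 82.6 kb after kd. Rpl3l, a muscle-specific member without H3K4me3, lost a 1.0 kb island over its TSS, and its kd H3K27ac island covered 20 bp of the window. Rpl3 moved from methylated to both, with H3K27me3 over the TSS in both conditions (4.0 and 4.6 kb).

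**Figure D5:**
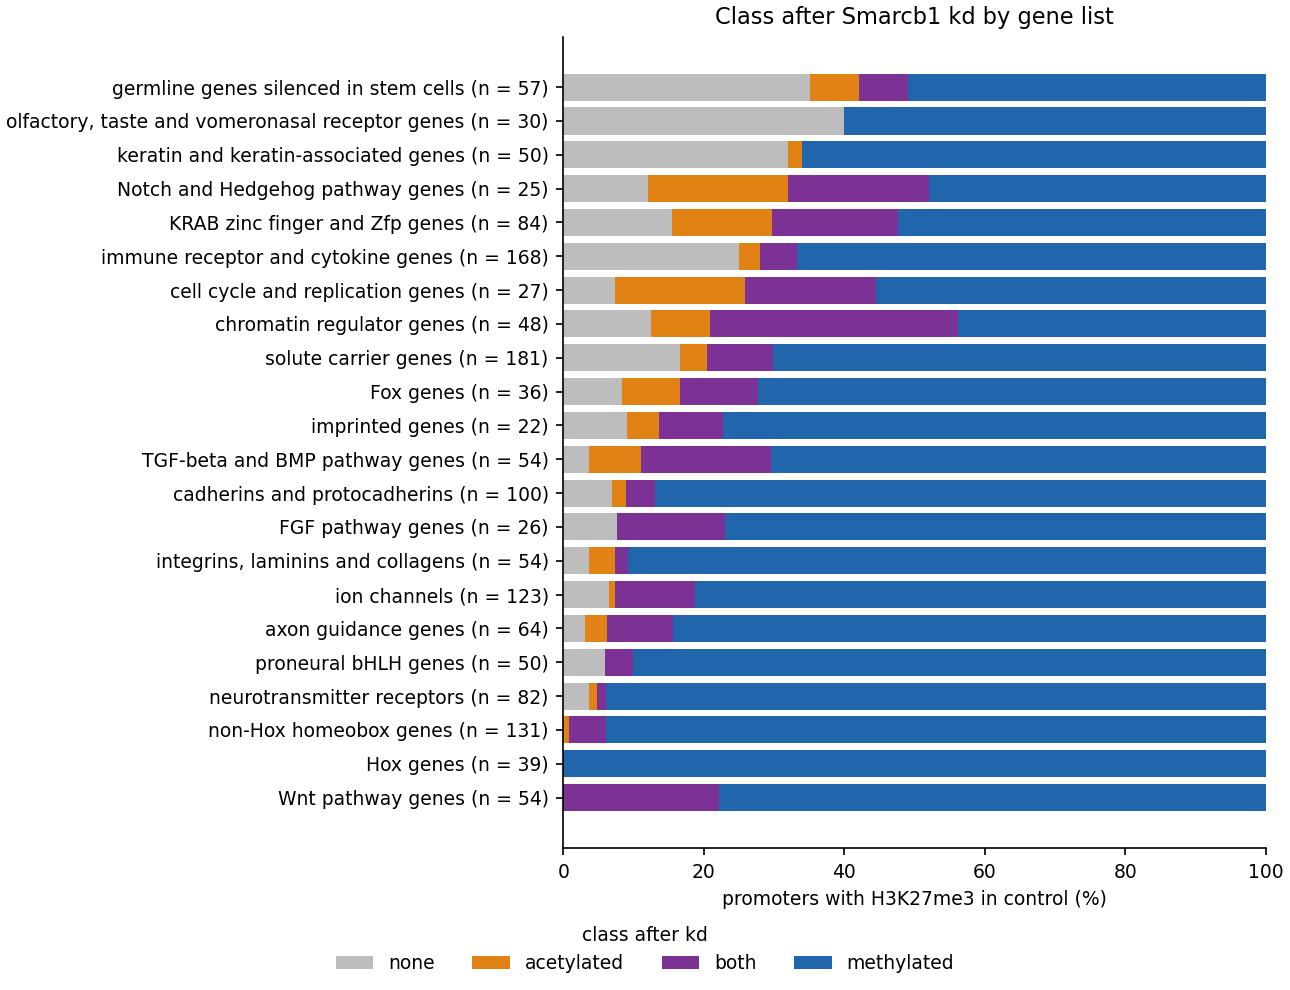
Class after Smarcb1 kd (share in percent, stacked) of the promoters with H3K27me3 in control, alone or with H3K27ac, for the 22 gene lists with at least 20 such promoters, ordered by the share that lost H3K27me3; n is the number with H3K27me3 in control. Wnt, Hox and other homeobox genes at the bottom keep the mark, while Notch and Hedgehog genes, near the top, hold 8 of 25 promoters without it.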

How the data were processed

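ChIP-seq was performed by the authors in 81K1 mESC with 1 library for each of 5 antibodies in control and kd, and peak or island lists of the 10 immunoprecipitated libraries were used. Per the labels and methods, reads were trimmed (Trim Galore), aligned to mm10 (Bowtie2) and filtered (SAMtools 1.9). H3K27me3, H3K27ac and H3K4me3 islands were called by the authors with SICER (window 200 bp, gap 600 bp), and their deposited values are the p-value of each island against background in its own library, kept at 1e-05 for H3K27ac and 1e-10 for the others; a p listed as 0 is below the smallest number written. Ezh2 and Smarca4 peaks carry the score the authors' MACS2 run deposited. Neither p-values nor scores are scaled between libraries, and the lists carry no read counts. The methods name input as background while peak names mention IgG, and H3K27me3 and Smarca4 were processed by a service laboratory and the other antibodies by the authors' own, which cannot be told apart from differences between antibodies.

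From these lists, a promoter (TSS ± 1 kb, 2001 bp, 1 per gene) was built for each protein-coding gene of GENCODE M21 on GRCm38 and called for a mark when at least 1 bp of an island fell inside. The annotated gene start need not be the start in use. Shares have Wilson intervals at 95%. The naming rule took the first 10 genes of each move (5 for moves between none and 1 mark), ordered by the larger p of the changed islands with ties by width and passing over unnamed loci, together with members of gene lists. The text names them for the main moves and up to 5 for acetylated to both, none to both, both to none and both to methylated, and a few genes that the rule selects are not reported here. Members and lists were chosen with earlier results of these data known. No test between conditions was made. The classing was checked on simulated islands. Promoter sequences came from RefSeq GRCm38.p6, where 16538 genes (75.4%) had an entry. Python 3.11.15, pandas 2.3.3, numpy 2.4.6, scipy 1.17.1 and matplotlib 3.10.9 were used.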

Additional observations from a re-analysis of the deposited data

How the results depend on the processing

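Of 78 counts recomputed under other settings for 8 results, 60 stayed within 1.5 times the value given, and under every setting more promoters switched to H3K27ac than to H3K27me3, lost H3K27me3 than gained it and gained H3K27ac than lost it. The switch to H3K27ac (375) fell to 242 with lists of equal length. The switch to H3K27me3 (16) was 8 within 500 bp of the TSS, 10 with at least 1000 bp covered, 3 with p at most 1e-20 for H3K27me3 and 1e-10 for H3K27ac, 7 with p at most 1e-10 for both, 25 with lists of equal length, 10 with islands under 50% repeat-masked and 7 with no island of the mark within 5 kb in the other condition. Gained H3K27me3 calls (524) fell to 348 under that last setting, and lost H3K27ac calls (402) came to 606 with lists of equal length. Promoters with both marks in control (329) numbered 503 with every annotated transcript start, 532 within 2 kb, 143 with 1000 bp covered, and 113 and 135 under the stricter and the shared p limit. After kd (953) they numbered 338 with 1000 bp covered, and 430 and 569 under those p limits. Apart from settings that narrow or widen the rule by construction, the cause was not tested. Values without chromosome 8 were added after the data were seen.

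No paired analysis was possible because each antibody had 1 library in each condition, and for the same reason no replicate was left out. The read counts reached by the libraries are unknown, and the part of depth in missing calls was not tested. Of the H3K27ac islands, 79.1% of 39091 in control and 74.1% of 51100 after kd counted as repeat-masked, with a limit of 50% of the island. At promoters the shares were 10.0% of 2977 and 8.19% of 5773 islands.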

Other observations

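Genes of the germline list, drawn up by symbol and not by expression in these cells, lost H3K27me3 in a larger share than the 23.3% of all promoters with the mark. Not all 135 listed promoters lacked active marks: H3K4me3 was called at 23 and H3K27ac at 7 in control. Of 57 germline promoters with H3K27me3 in control, 24 lost it (42.1%), of which 20 moved to none. Sycp3 and Terb2, both of meiotic chromosomes, and Zp3, an egg coat protein, switched to H3K27ac. At Zp3 a 6.2 kb H3K27me3 island (p of 1.74e-32) gave way to a 3.2 kb H3K27ac island (p of 2.78e-11), and the next H3K27me3 island lay 104 kb away. Mageb3 moved from both to acetylated. Keratin genes lost H3K27me3 at 17 of 50 promoters (34.0%), and H3K27ac was gained by Krtap5-5 alone of these 50. Immune receptor and cytokine genes lost H3K27me3 at 47 of 168 promoters (28.0%) and gained it at 17 of the 202 without it in control. These gains came to 8.42% (5.32 to 13.1), against 3.67% of all such promoters. They include the 3 interferon genes that share an island (Ifna11, Ifna6 and Ifna7), so not all are separate events. H3K27ac was gained at 12 of 166 methylated promoters of this list (7.23%, against 14.6% of all methylated promoters).

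Of 1515 promoters of olfactory, taste and vomeronasal receptor genes 30 had H3K27me3 in control and 65 after kd, with 47 gains and 12 losses. The gains came to 3.16% of the 1485 without the mark in control (2.39 to 4.18), against 3.67% of all such promoters, and 12 of the 30 with it lost it (40.0%, against 23.3%). Many of these genes lie in clusters that can share islands.

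Along chromosome 8 the gain of H3K27ac was uneven. Of the promoters without H3K27ac in control, 54.1% gained it between 70 and 80 Mb and 49.0% between 120 and 130 Mb, while 14.3% (2 of 14) did between 50 and 60 Mb. On the other chromosomes 19.2% gained it.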
